A study of Mus musculus with 9 samples.

Results

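Gpnmb, Gas6, Itgax and Cd36 are 4 genes of dead-cell clearance, lipid uptake and lipid-associated macrophages. They were taken by name from a deposited table of 311 genes, and all 4 were found in it. The table holds RNA sequencing counts. The cells were RAW264.7, a macrophage-like mouse line, so both groups share a genetic background. The control group was 4 libraries of cells given a negative control. The other group was 5 libraries of cells transfected with a let-7c-5p mimic, a synthetic copy of that microRNA. The labels give no mimic dose, no time after transfection and no sequence for the control, and call the libraries biological replicates without saying how the cultures were separated. The series states its purpose as asking what let-7c-5p does to the polarization of macrophages and to what they can do.

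The table is a selection. No gene in it had a log2 ratio of mean counts, mimic over control, closer to 0 than 0.98, so each had already been picked for a difference of about that size. Column totals were 40655 to 83053 counts over these genes and are not sequencing depths, which are unknown here. None of the 10 macrophage identity markers looked for was among the 311 genes, so the labelled cell type could not be checked here.

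A macrophage that clears a dying cell first has to recognise it, then engulf it, and then digest its protein and lipid in lysosomes. Gas6 works at the first step: it is a secreted, vitamin K-dependent protein that binds phosphatidylserine on the dying cell and the receptors Tyro3, Axl and Mertk on the phagocyte. Cd36 is a class B scavenger receptor for oxidised lipoproteins, long-chain fatty acids and dying cells. Itgax, known as CD11c, is the integrin alpha chain that pairs with Itgb2 to form complement receptor 4, and is a common marker of dendritic cells. Gpnmb is a transmembrane glycoprotein of lysosomes and the cell surface. Gpnmb, Itgax and Cd36 are often named as markers of lipid-associated macrophages, the lipid-laden state described in fat tissue. Gas6, a secreted ligand, is thus the only 1 of the 4 that is not itself a membrane protein.

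MicroRNAs lower their targets through matches to their seed, bases 2 to 8, mostly in 3′ untranslated regions (UTRs). The mature mouse let-7c-5p of RefSeq (GRCm38.p6) is shown because it is the molecule that was transfected, with its seed in capitals.
let-7c-5p: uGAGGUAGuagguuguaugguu
The same 22 bases are encoded at chr15:85706616-85706637 and at chr16:77599672-77599693, both on the plus strand. Of the 10 coding transcripts of the 4 genes with an annotated stop codon in GENCODE M21, 1 held a match to the whole seed in its 3′ UTR. This was Gpnmb-203, a shorter Gpnmb transcript with a 3′ UTR of 803 bases. Its match lies at chr6:49070842-49070848 on the plus strand of GRCm38 and begins at base 716 of that UTR. It is a 7mer-m8 site, printed with the 15 bases before it and the base after it, the site in capitals.
Gpnmb-203 site: ctcacagaaatccacCTACCTCt
The longest coding Gpnmb transcript, Gpnmb-201, did not hold these 7 bases anywhere in its 3701 bases, nor did the longest coding transcripts of Gas6, Itgax and Cd36. The deposited counts are per gene, so the Gpnmb transcripts could not be separated.

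All 4 genes had more reads in each of the 5 mimic libraries than in any control library. The same held in 38.3% of all tested genes. Gpnmb, Gas6, Itgax and Cd36 each rose about 2-fold by the main library scaling, with log2 fold changes between 1.01 and 1.16. Other scalings gave values from 0.62 to 1.60, and with column totals Itgax and Cd36 were not called. The 4 genes spanned a very wide range of abundance, and their proportions to each other did not differ detectably between the groups. Of all 149 genes tested, 99.3% were called in either direction and 51.0% were called higher, so 4 of 4 members called higher is a description of genes picked for a difference, not support for a change in a pathway. In RNA from whole cultures, more cells that make a transcript and more of it per cell cannot be told apart.

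**Figure D1:**
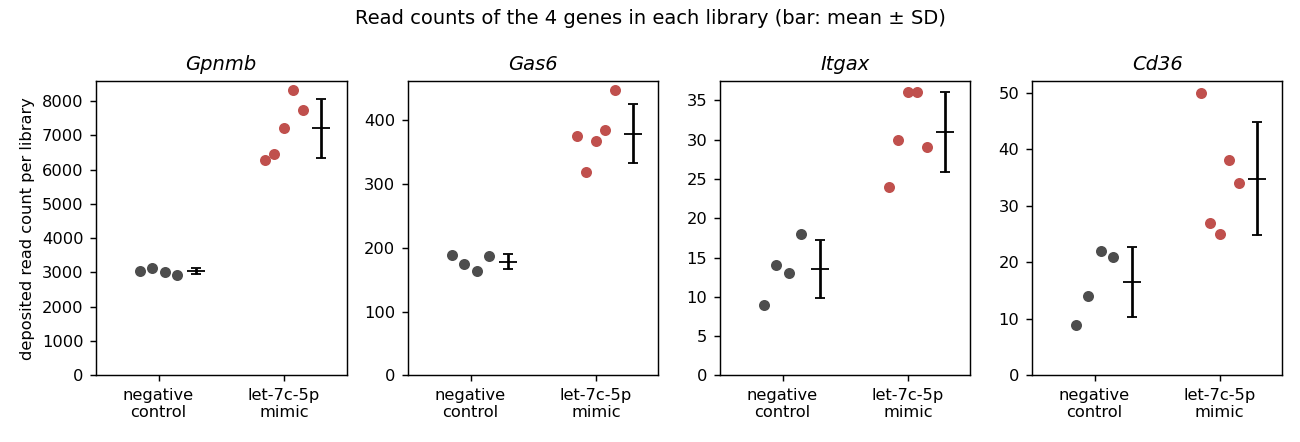
Deposited read counts (y axis, each panel from 0) of Gpnmb, Gas6, Itgax and Cd36 in the 4 negative control libraries (grey) and the 5 let-7c-5p libraries (red); each point is 1 library and the bars are means ± SD. The mimic libraries lie above the control libraries in each panel, with the narrowest gap in Cd36 (22 against 25 counts).

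Gas6 (ENSMUSG00000031451), the bridging ligand, had 188, 174, 163 and 187 counts in control replicates 1 to 4. With the mimic it had 375, 318, 368, 385 and 447 counts in replicates 1 to 5. The groups did not overlap, and the lowest mimic library, replicate 2, was still well above the highest control. The mean rose from 178 ± 11.9 (SD, n = 4) to 379 ± 46.1 counts (SD, n = 5). By edgeR's quasi-likelihood test the log2 fold change was 1.01 ± 0.22 (SE), with a Benjamini-Hochberg adjusted p of 0.00104 over the 149 tested genes. The annotated Gas6 gene overlaps Tmem255b on the opposite strand, and the sources do not give the strand setting of the counting, so reads of the overlapping stretch could come from either gene.

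Cd36 (ENSMUSG00000002944), the scavenger receptor, had 9, 14, 22 and 21 counts in the control replicates. The mimic replicates had 50, 27, 25, 38 and 34 counts. The groups were separated by 3 counts only, and mimic replicate 1 was the highest library. Means were 16.5 ± 6.14 (SD, n = 4) and 34.8 ± 9.98 (SD, n = 5), with a log2 fold change of 1.03 ± 0.28 (SE, edgeR, adjusted p = 0.00375).

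Itgax (ENSMUSG00000030789), the integrin chain, was the least abundant, with 9, 14, 13 and 18 counts in the control replicates. It had 24, 30, 36, 36 and 29 counts in the mimic replicates. Here too the groups did not overlap, and mimic replicate 1, the highest library for Cd36, was the lowest. Means were 13.5 ± 3.70 (SD, n = 4) and 31.0 ± 5.10 (SD, n = 5), a log2 fold change of 1.16 ± 0.27 (SE, edgeR, adjusted p = 0.00142). The closest other transcript to Itgax was that of its paralog Itgad, 94.99% identical over 758 bases. Reads from that stretch may be hard to tell apart, and Itgad itself was not analysed here.

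Gpnmb (ENSMUSG00000029816), the lysosomal glycoprotein, was by far the most abundant of the 4. It had 3035, 3144, 3024 and 2927 counts in the control replicates. In the mimic replicates it had 6287, 6453, 7219, 8310 and 7748 counts. Every mimic library held about double the reads of the highest control library or more. Means were 3033 ± 88.8 (SD, n = 4) and 7203 ± 855 (SD, n = 5), and the fitted log2 change was 1.16 ± 0.26 (SE, edgeR, adjusted p = 0.00125). By blastn, no transcript of another gene aligned with the longest coding transcripts of Gpnmb, Gas6 or Cd36 over at least 150 bases.

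Groups that do not overlap are common in this table: this held in 63.8% of the tested genes, and in 38.3% with the mimic higher. Among the 77 tested genes with a positive log2 fold change the median was 1.10, and the 4 genes lay on both sides of it. Gpnmb ranked 27th, Itgax 28th, Cd36 57th and Gas6 62nd. The unscaled log2 ratios of mean counts were 1.25 for Gpnmb, 1.09 for Gas6, 1.20 for Itgax and 1.08 for Cd36, not far above the smallest in the table.

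Counts of different genes were compared per kilobase of the longest coding transcript, which was 3701 bases for Gpnmb, 2548 for Gas6, 4046 for Itgax and 3399 for Cd36. On this scale control Gpnmb stood at 819 ± 24.0 counts per kilobase (SD, n = 4) and mimic Gpnmb at 1946 ± 231 (SD, n = 5). Gas6 followed with 69.9 ± 4.65 and 149 ± 18.1 counts per kilobase. Cd36 had 4.85 ± 1.81 and 10.2 ± 2.94, and Itgax 3.34 ± 0.914 and 7.66 ± 1.26 counts per kilobase. The order Gpnmb, Gas6, Cd36, Itgax was the same in both group means, but the ranges of Cd36 and Itgax overlapped in each group. Of all counts of the 4 genes in a library, Gpnmb made up 93.6% ± 0.512 in control libraries (SD, n = 4) and 94.2% ± 0.578 in mimic libraries (SD, n = 5).

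The ratio of 2 genes within a library does not change with any scaling of that library, which matters where column totals are no depths. The 6 ratios among the 4 genes were therefore compared between the groups. Each was taken as a log2 ratio with 0.5 added to both counts, and tested with a two-sided exact permutation test over every way to divide the 9 libraries into 4 and 5. The smallest p this allows is 0.0159, so a ratio that differed alone could not be called after adjustment over the 6. None of the 6 ratios was called different between the groups, with adjusted p-values of 0.857 to 0.984 over the 6 (exact permutation test). No ratio reached an unadjusted p under 0.05 either.

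The ratio measured most precisely was Gpnmb to Gas6. There were 16.1, 18.1, 18.6 and 15.7 Gpnmb reads for each Gas6 read in control replicates 1 to 4. In mimic replicates 1 to 5 there were 16.8, 20.3, 19.6, 21.6 and 17.3. The groups overlapped, with mimic replicates 1 and 5 inside the control range. Mean log2 ratios were 4.09 ± 0.12 (SD, n = 4) and 4.25 ± 0.15 (SD, n = 5). Their difference, mimic minus control, was 0.16 (95% interval -0.10 to 0.40, exact permutation p = 0.143). As a fold, Gpnmb per Gas6 was 1.12 times as high with the mimic (95% interval 0.933 to 1.32), and folds outside that interval were rejected by the test.

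Ratios with Itgax or Cd36 were less precise, because these genes had few reads. The summed Gpnmb reads per Itgax read were 225 in the control and 232 with the mimic. The difference of mean log2 ratios was 0.05 (95% interval -0.49 to 0.52, exact permutation p = 0.825). Per Cd36 read there were 184 and 207 Gpnmb reads in the group sums, with a difference of 0.15 (-0.68 to 0.93, exact permutation p = 0.714). For Gas6 the group sums gave 13.2 and 12.2 reads per Itgax read and 10.8 and 10.9 per Cd36 read. The mean log2 differences of these were -0.11 (-0.91 to 0.47, exact permutation p = 0.683) and -0.01 (-0.84 to 0.78, exact permutation p = 0.984).

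Itgax and Cd36 reads were close to equal in number. The ratio of Itgax to Cd36 was 1.00, 1.00, 0.591 and 0.857 in the control replicates. It was 0.480, 1.11, 1.44, 0.947 and 0.853 in the mimic replicates, which spanned a wider range than the controls on both sides. The difference of mean log2 ratios was 0.10 (-0.83 to 0.81, exact permutation p = 0.810). As folds the interval runs from 0.564 to 1.75, so a change of this size in one gene against the other was not detectable at these counts. The SD of this log2 ratio was 0.35 in the control and 0.58 with the mimic, where counting error alone would give 0.55 and 0.36. As each of the 4 genes had been picked for a rise of similar least size, part of their likeness follows from that choice.

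**Figure D2:**
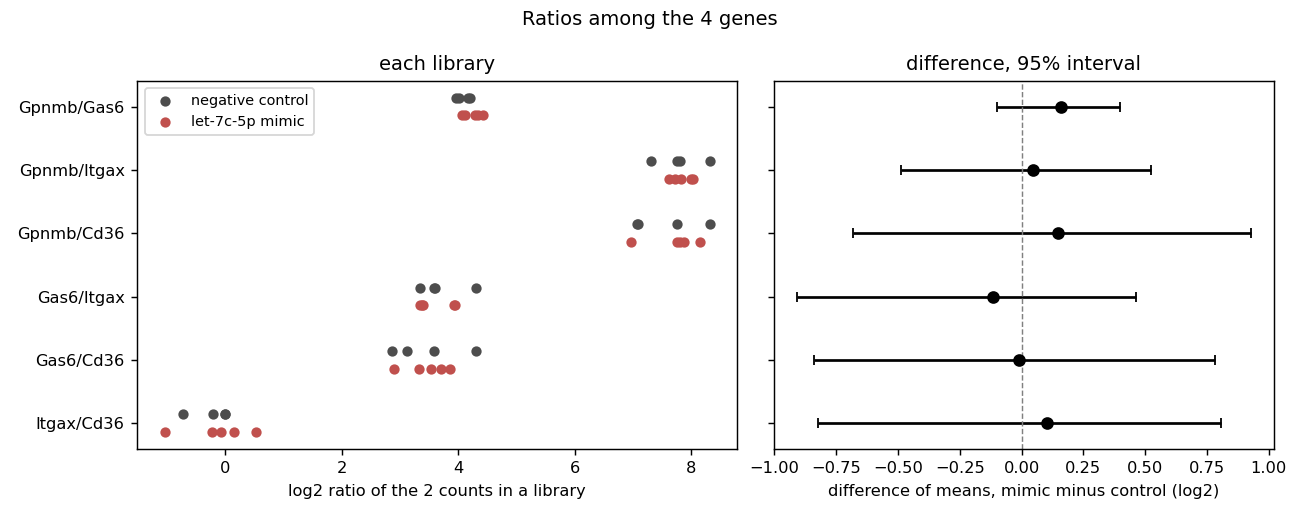
Left, log2 ratio of the counts of each pair of genes (x axis) in each negative control library (grey) and let-7c-5p library (red). Right, difference of the group means (log2, mimic minus control) with the 95% interval from the exact permutation test. All 6 intervals include 0, and the Gpnmb/Gas6 interval, -0.10 to 0.40, is the narrowest.

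The size of each fold change, in contrast, rested on how libraries were scaled. The values above use edgeR's trimmed mean of M-values (TMM). With size factors of the DESeq2 type, computed in edgeR on the tested genes, the 4 log2 fold changes lay between 1.01 and 1.19. With equal library sizes they lay between 1.07 and 1.25. DESeq2 itself, run on all 311 genes, gave lower values: 0.94 for Gpnmb, 0.78 for Gas6, 0.91 for Itgax and 0.77 for Cd36. The median shift from TMM in that run was -0.24 over the 149 genes. With column totals in edgeR the log2 fold changes were 0.82 for Gpnmb, 0.65 for Gas6, 0.80 for Itgax and 0.62 for Cd36. Under that scaling Gpnmb (edgeR adjusted p = 0.0108) and Gas6 (0.0367) were called and Itgax (0.0541) and Cd36 (0.105) were not, beside 19.5% of the tested genes called higher.

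Column totals were dominated by Gm10123 and the ribosomal protein gene Rpl17. Together these took 29.0% to 35.3% of the control totals and 47.5% to 71.2% of the mimic totals. With Gm10123, Gm6061 and Rpl17 left out of the totals, the log2 fold changes were 1.60 for Gpnmb, 1.45 for Gas6, 1.57 for Itgax and 1.46 for Cd36. The median of all 149 tested genes moved along, by -0.36 with column totals and by 0.44 without those 3 genes. Beyond these shifts the values of the 4 members moved by at most 0.06 on the log2 scale. Which scaling matches the RNA content of the cells cannot be decided from a table of selected genes.

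**Figure D3:**
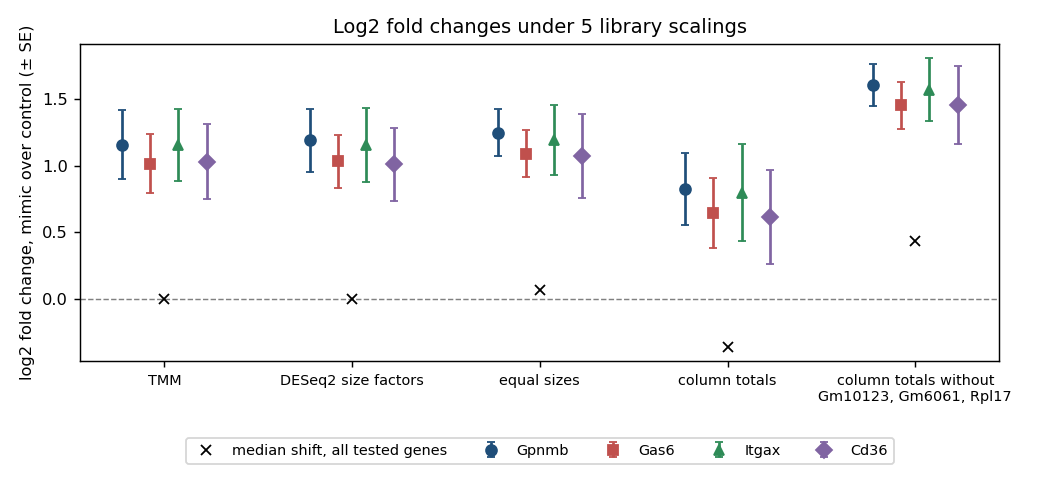
Log2 fold change, mimic over control, of Gpnmb, Gas6, Itgax and Cd36 (y axis, ± SE) under 5 ways of scaling the libraries; crosses give the median shift of the 149 tested genes from its place under TMM. The 4 genes move together with the crosses, from 0.62 to 0.82 with column totals and from 1.45 to 1.60 without the 3 abundant genes.

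The spread between replicates also turned on scaling. In the deposited control counts, Gpnmb had a coefficient of variation of 2.93%, where counting error alone would give 1.82%. Gas6 had 6.66% against 7.50%, and Itgax 27.4% against 27.2%, so control libraries differed about as much in Gas6 and Itgax as counting error gives, taking reads as independent. Gpnmb, and Cd36 at 37.2% against 24.6%, varied more, with a variance of 2.60 and 2.28 times the mean. With the mimic, Gpnmb varied by 11.9% and Gas6 by 12.2%, both above their counting errors of 1.18% and 5.14%, while Itgax, at 16.4% against 18.0%, again did not exceed it. Cd36 varied by 28.7% with the mimic, against a counting error of 17.0%.

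After TMM scaling the control coefficient of variation rose to 23.6% for Gpnmb and 24.5% for Gas6. Scaled Gpnmb counts then ran from 2217 in control replicate 4 to 3990 in control replicate 1, where the deposited counts were 2927 and 3035. The mimic libraries ran from 5587 to 9124, so the groups stayed apart, as they did for the other 3 genes. The share of all tested genes whose groups stay apart after scaling was not computed. In the deposited counts it was 63.8%, and 38.3% with the mimic higher. TMM scaling thus made the 2 abundant genes more variable between replicates than they were as deposited, and the standard errors above carry that spread. For Cd36 it lowered the control value, to 26.1%, and for Itgax to 11.5%.

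**Figure D4:**
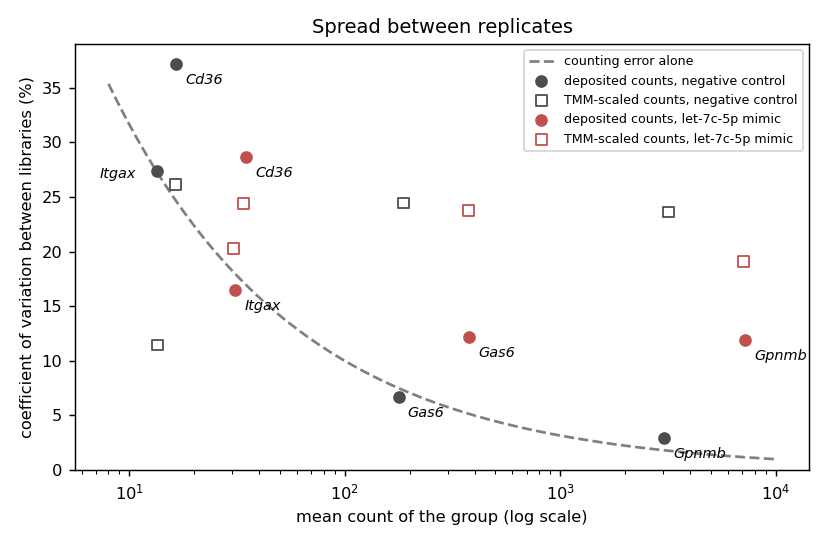
Coefficient of variation between libraries of a group (y axis, %) against the mean count (x axis, log scale) for each gene, as deposited (filled circles) and after TMM scaling (open squares), in the control (grey) and mimic (red) groups; the dashed line is counting error alone. Deposited control counts of Gas6 and Itgax lie on or just below the line, and scaled counts of Gpnmb and Gas6 lie far above it, at 19.1% to 24.5%.

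Genes with the most similar pattern were ranked by the SD, over the 9 libraries, of the log2 ratio to each member, using genes that averaged 50 counts or more. This is a description, and genes that rose by a like amount are favoured by it. For Gpnmb the closest of 47 genes was Gas6 (SD 0.16), followed by Cst7 (0.16), which encodes cystatin F, an inhibitor of lysosomal cathepsins, and Klhl30 (0.17). Over all 148 other tested genes, low counts included, Gas6 also ranked 1st for Gpnmb, Itgax 18th and Cd36 48th. For Gas6 the closest were Cst7 (0.13), Fam20c (0.15), a kinase of secreted proteins, and Gpnmb (0.16). The log2 fold changes of Cst7 and Fam20c were 0.93 and 0.98.

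For the less abundant members the nearest genes were harder to separate, as counting error took most of the SD. Asb10 (0.27), Gpnmb (0.28) and Aldh1l1 (0.31), a folate-metabolism enzyme, were closest to Itgax among 48 genes. For Cd36 they were Pik3ip1 (0.31), an inhibitor of phosphoinositide 3-kinase, Asb10 (0.38) and Cbr2 (0.43), a carbonyl reductase. When only deviations from the group means were used, Cst7 (SD 0.12) and Gas6 (0.14) came 1st and 2nd for Gpnmb, and Tnf (0.14), which was lower with the mimic, came 3rd. This second ranking was chosen after seeing the data. By it Itgax and Cd36 ranked 29th and 76th of 148 for Gpnmb. The SD for Itgax, 0.30, was no larger than the 0.33 that counting error gives, so its rank says little about its pattern. For Cd36 the SD was 0.52, where counting error gives 0.38 in the control and 0.25 with the mimic. Most of the nearest genes of the less abundant members also differed by the second ranking. Those of Itgax were Tnf (0.21), Tnfaip3 (0.26) and Egr1 (0.27), all lower with the mimic, and Gpnmb ranked 12th of 148. Those of Cd36 were Lilrb4a (0.26) and Zc3h12c (0.28), both lower with the mimic, and then Pik3ip1 (0.33).

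Of 116 genes in 7 lists covering phagocytosis, lipid handling, scavenger receptors, integrins and lysosomes, 4 were in the table, and these were the 4 members. Of 20 lipid-associated macrophage genes, Gpnmb, Itgax and Cd36 were present and all 3 were called higher, beside 51.0% of the tested genes. Their median log2 fold change was 1.16, beside 0.93 over all 149 tested genes and 1.10 over the 77 of them with a positive value. Gas6 was the only 1 of 20 efferocytosis ligands and receptors, Cd36 the only 1 of 24 genes of lipid uptake, storage and efflux and of 15 scavenger and Fc receptors. Itgax was the only 1 of 10 leukocyte integrin chains, and Gpnmb of 22 lysosome regulators and targets. None of 18 genes of engulfment and phagosome maturation was present. Other genes of these lists, such as the Gas6 receptors Axl and Mertk or the integrin partner Itgb2, were not analysed here.

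Markers of other cell types gave little to set beside these values. Of 8 dendritic cell markers Itgax itself was the only 1 in the table, and of 5 fibroblast markers none was present. Mmp9, 1 of 9 osteoclast markers, had 57 to 78 counts in the control and 21 to 36 with the mimic, a log2 fold change of -1.18 ± 0.24 (SE, edgeR adjusted p = 6.4e-04). Vwf, 1 of 5 endothelial markers, had 12 to 17 counts in the control and 19 to 41 with the mimic, a log2 fold change of 1.11 ± 0.29 (adjusted p = 0.00242). With column totals Vwf was not called (0.82, edgeR adjusted p = 0.0619). The part of other cell states in the rise of the 4 members was not tested.

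Base composition also differed between the directions of this table. The longest transcripts of tested genes had a median GC content of 55.2% in 74 higher genes and 42.5% in 70 lower genes with a matched transcript. The longest coding transcripts of the members had 56.6% in Gas6, 51.6% in Itgax, 49.6% in Gpnmb and 38.4% in Cd36. Cd36 was thus below the median of the lower genes although its counts were higher with the mimic, and 2.70% of the higher genes had a lower GC content. The part of GC content in the result was not tested.

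The promoter windows of the 4 genes are shown because all 4 were higher with the mimic, and shared letters are the simplest thing to look for. As genes of this table had been picked for a difference, a shared direction does not show that they are controlled together. They are from RefSeq (GRCm38.p6), 250 bases before to 50 bases after the listed start, each on its gene's strand, with matches to the motifs below in capitals.
Gpnmb (chr6:49036268-49036567, plus strand): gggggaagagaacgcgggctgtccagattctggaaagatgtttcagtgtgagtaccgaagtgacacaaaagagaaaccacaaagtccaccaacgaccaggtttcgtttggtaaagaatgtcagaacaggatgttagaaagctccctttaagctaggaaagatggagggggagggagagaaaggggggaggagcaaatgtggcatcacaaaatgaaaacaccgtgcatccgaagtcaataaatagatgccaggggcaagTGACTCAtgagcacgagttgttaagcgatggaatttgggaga
Gas6 (chr8:13494486-13494785, minus strand): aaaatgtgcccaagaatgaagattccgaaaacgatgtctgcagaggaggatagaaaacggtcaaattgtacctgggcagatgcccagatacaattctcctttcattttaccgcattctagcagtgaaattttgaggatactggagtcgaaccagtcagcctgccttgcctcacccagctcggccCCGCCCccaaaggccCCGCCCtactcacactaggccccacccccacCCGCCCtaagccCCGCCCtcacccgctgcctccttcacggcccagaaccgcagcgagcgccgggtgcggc
Itgax (chr7:128129300-128129599, plus strand): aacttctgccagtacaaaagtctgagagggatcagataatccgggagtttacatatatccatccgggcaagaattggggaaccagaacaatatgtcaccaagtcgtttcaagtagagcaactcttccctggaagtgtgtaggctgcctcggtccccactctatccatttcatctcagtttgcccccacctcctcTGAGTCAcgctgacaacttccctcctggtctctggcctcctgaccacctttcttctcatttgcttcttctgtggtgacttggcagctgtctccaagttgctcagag
Cd36 (chr5:17835847-17836146, minus strand): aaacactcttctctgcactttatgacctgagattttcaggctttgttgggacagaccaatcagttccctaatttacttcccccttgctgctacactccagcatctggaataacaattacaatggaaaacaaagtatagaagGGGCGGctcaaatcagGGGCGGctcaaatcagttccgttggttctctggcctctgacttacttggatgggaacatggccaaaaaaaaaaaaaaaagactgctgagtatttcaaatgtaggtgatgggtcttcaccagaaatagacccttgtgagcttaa
Other starts of Cd36, which has 6 annotated transcripts, are not in this window.

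Exact matches were sought on both strands for 9 motifs in these windows and in all 32851 windows of the same table. No motif was matched in all 4 windows. The AP-1 motif TGANTCA was matched in Gpnmb, from base 259 of the window, and in Itgax, from base 195, and in 7.81% of all windows. The GC box GGGCGG was matched 4 times in Gas6 and 2 times in Cd36, and in 35.7% of all windows. The E-box CACGTG (7.15% of all windows), the M-box form TCANGTG (14.3%), the PU.1 motif GAGGAAGT (3.20%) and the TATA box TATAAA (13.6%) were not matched in any of the 4. Nor were the NF-kappaB motif (0.411%), the direct repeat 1 bound by PPAR (0.0396%) and the direct repeat 4 bound by LXR (0.0152%). GC content of the windows ran from 43.0% for Cd36 to 58.3% for Gas6, beside a median of 52.7% over all windows. A match to these letters is a description of the sequence and says nothing of whether a factor was bound.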

How the data were processed

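The authors deposited unnormalized gene-level counts of reads, with a column for each library. The tools named in the submitters' processing notes are FastQC 0.11.9, the aligner HISAT2 2.1.0, the counter HTSeq 0.11.2, DESeq2 1.4.2 and R 4.3.2. Build, annotation and strand setting: not given in the sources used here. Counts were fitted over the whole table with edgeR 4.0.16 in R 4.3.3 (TMM, filterByExpr with a minimum count of 10, two-sided quasi-likelihood test, no covariate besides group). Benjamini-Hochberg adjustment ran over 149 tested genes, with a call at an adjusted p under 0.05. SEs are the absolute log2 fold change over the square root of F. P-values set the group difference against the spread between these libraries. For genes picked on the same libraries they are too small as independent evidence. Replicate pairs were distinct, with a chi-square per degree of freedom of 3.29 to 22.8 in the control and 6.87 to 121 with the mimic. Mimic replicates 1 and 5 were alike (11.8), as were 3 and 4 (6.87), against 73.0 to 121 between these 2 pairs. Gm10123 had 42998 and 49512 counts in replicates 1 and 5, and 14377 and 14146 in 3 and 4. Rpl17 had 5776 and 9614 counts in replicates 1 and 5, and 14574 and 22239 in 3 and 4. The part of these abundant genes in the split was not tested.

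Ratios used SciPy 1.17.1 and intervals invert the exact test. The edgeR script was also tested on simulated data in which changed genes were a minority. The deposited table differs in this, so the simulation does not show how scaling behaves in it. Transcripts came from GENCODE M21, matched by gene ID (295 of 311), with blastn 2.17.0 for similar genes. All 4 members matched in the promoter table.

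The members, lists, motifs and the rule for named genes (the members, the 3 most alike genes for each, list and marker genes in the table, and the abundant genes that set the totals) were chosen with earlier results of these data known. The within-group ranking and its genes were added after seeing values. Alternatives were 4 other scalings, no filter, DESeq2 1.42.0, a replicate block, leaving out libraries, other pseudocounts and other summaries of the ratios.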

Additional observations from a re-analysis of the deposited data

How the results depend on the processing

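Each of the 4 members kept a positive log2 fold change and its call under the alternatives run, except Itgax (0.80) and Cd36 (0.62) with column totals, which left 2 members called. That scaling called 29 of 149 genes higher, against 76 of 149 with TMM. No filter called all 311 genes (170 higher), against 148 of 149, as it took in low-count genes. The DESeq2 Wald test, which also changes the size factors and the filter, called 237 of 311 genes (96 higher), and the cause was not tested. Leaving out each library in turn gave log2 fold changes of 0.91 to 1.35 for Gpnmb, 0.79 to 1.21 for Gas6, 0.96 to 1.30 for Itgax and 0.85 to 1.27 for Cd36. In these fits 131 to 164 genes were called (65 to 82 higher) of 136 to 168 tested, with 4 members called each time. As the genes had been picked for a difference on these libraries, kept calls are little evidence of stability.

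No ratio was called under any of 15 alternatives, but 5 of the 6 small differences changed sign in some, and the cause was not tested. The smallest p is 0.0159 with all 9 libraries, and 0.0357 or 0.0286 without 1 control or 1 mimic library (exact permutation test). After adjustment over 6 ratios, a ratio that differed alone could thus not be called in any of them. Uncalled ratios are therefore little evidence of stability. No unadjusted p was under 0.05 in the alternatives either. With 5 added to each count, Gas6/Itgax was 0.091 and Gas6/Cd36 0.16. Gas6/Cd36 was 0.012 from summed counts and 0.18 from medians. An alternative chosen after seeing the data left out mimic replicates 1 and 5, the libraries richest in Gm10123. Gpnmb/Itgax was then -0.071 and Gas6/Cd36 0.10, while Itgax/Cd36 was 0.44, Gas6/Itgax -0.34, Gpnmb/Cd36 0.36 and Gpnmb/Gas6 0.27. The exact permutation p of the last was 0.0571, the smallest that 4 against 3 libraries allow, so this alternative could call no ratio and says nothing about stability. Leaving out each library in turn gave 0.11 to 0.21 for Gpnmb/Gas6, -0.12 to 0.22 for Gpnmb/Itgax, -0.014 to 0.40 for Gpnmb/Cd36, -0.24 to 0.087 for Gas6/Itgax, -0.21 to 0.27 for Gas6/Cd36 and -0.064 to 0.33 for Itgax/Cd36.

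The labels number replicates alike in both groups, but same-numbered libraries did not deviate together (correlations of -0.23 to 0.03, and 0 of 4 were best with their own number). With the replicate number as a block, edgeR called 144 of 149 genes and all 4 members. For the ratios, the block used only the 4 shared replicate numbers, so mimic replicate 5 was left out. Gpnmb/Itgax was then -0.0016, the same value as without mimic replicate 5 and no block. The smallest p of the exact sign-flip test is 0.125, so it too could call no ratio. Few reads of Itgax and Cd36 limit what could be detected in them.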
